A study of Caenorhabditis elegans with 12 samples.

Results

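The comparison described here set embryos taken 6 h after a heat pulse against embryos taken 2 h after the same pulse, in a *Caenorhabditis elegans* strain (KM267) that carries the muscle regulator gene *hlh-1* under heat shock control. Its members were the 3 arrays labeled 6 hour and the 3 labeled 2 hour, 6 of the 12 arrays of the series, and all probe sets other than the array's controls. For each sample about 80 embryos were collected at the first cleavage stages, held for 60 min, heated to 34 °C for 30 min and then left at room temperature for 6 or 2 h before RNA was extracted. The samples of a time point were independent collections. Both groups therefore carried the transgene and received the heat pulse, and they differed in the time that had passed. Embryos without the transgene were not analyzed here, so a difference given below may hold later effects of HLH-1, recovery from heat and ordinary development, which this design cannot tell apart. Because whole embryos were used, a lower signal can stand for fewer cells of a type or for less RNA per cell, and these cannot be told apart either.

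HLH-1 is the *C. elegans* relative of vertebrate MyoD, a basic helix-loop-helix factor that switches on muscle genes, and its forced expression in early embryos turns most cells toward a body wall muscle fate. Body wall muscle is striated. Thick filaments of myosin and paramyosin are held at M-lines, thin filaments of actin, tropomyosin and troponin are held at dense bodies, and both are anchored through integrin to a basement membrane shared with the epidermis. Contraction is set off by acetylcholine from motor neurons and calcium from internal stores. A heat pulse also sets off the heat shock response, in which genes for chaperones are transcribed at a high rate for a short time and then shut down.

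The measurements were MAS5 signals, a linear array intensity that the authors had scaled to a trimmed mean of 500.2 to 500.3 on every array. Their median was still higher at 6 h (112 to 141) than at 2 h (89.6 to 103), and so was the share of probe sets above a reference level of 69.7 (62.2 to 67.0% at 6 h and 56.7 to 60.2% at 2 h). The ratio of 3′ to 5′ signal of the *Gapdh* control was 47.3, 8.33 and 9.43 on 6 h arrays A, B and C, against 26.3, 9.37 and 9.31 on 2 h arrays A, B and C. Array A was thus the highest in both groups for this control, but not for the others. The actin ratio was highest on 6 h array A (7.83) and 2 h array B (9.75). The ubiquitin ratio was highest on 6 h array B (13.1) and 2 h array C (16.5). Replicate arrays correlated at 0.835 to 0.850 at 6 h and at 0.871 to 0.884 at 2 h (log2 signals across probe sets, which are not independent). Differences are log2 signal at 6 h minus log2 signal at 2 h, given with their standard error from limma, with p-values adjusted by Benjamini-Hochberg over all 18264 tested probe sets. A probe set was called when its adjusted p was under 0.05 and its fold at least 1.7. Where any array of the dimmer group was not above the reference level, its signal was raised to that level, and the resulting fold is a lower bound, written "at least". The log2 change beside such a bound is the fitted difference of signals that include some under the reference level, and it is not a size. Signals of different probe sets are not compared, since probes differ in how well they bind.

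Over the whole array the 2 time points differed at 2610 probe sets that were higher at 6 h (14.3% of 18264) and 2646 that were lower (14.5%). Signals of the 6 h and 2 h arrays did not overlap at 2561 of the raised and 2596 of the lowered probe sets. With 3 arrays per group the call itself favors this, so these counts are not separate support. The share without overlap over all tested probe sets is not given here. The median fold was 3.11 among the 1437 raised probe sets with signal above the reference level in all arrays, and 3.05 among 1877 lowered ones. A change of 10-fold or more was seen at 206 and 214 of these, and a bound of 10-fold or more at a further 302 raised and 145 lowered probe sets. The balance between directions depended on the scaling. With every array set to the same median, 1894 probe sets were raised and 3620 lowered, so that 34.3% of calls were increases instead of 49.7%. The median change of all tested probe sets was 0.16 with the deposited scaling, -0.22 with equal medians and -0.06 after quantile normalization, and small changes below are to be read against that shift. Read at 1 probe set each, 2044 of 14055 genes were raised (14.5%) and 2073 lowered (14.7%), with a median change of 0.17.

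**Figure D1:**
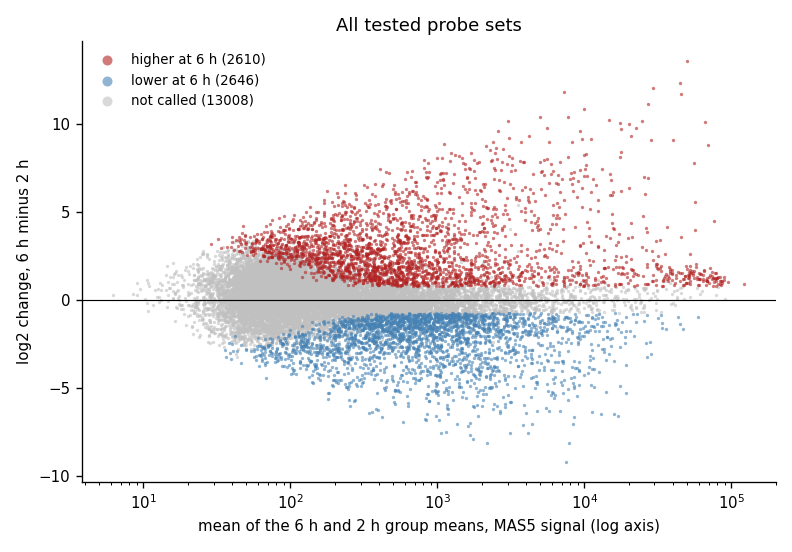
Change between the time points (log2, 6 h minus 2 h) of each of the 18264 tested probe sets against its mean MAS5 signal (log axis), with 2610 called probe sets higher at 6 h in red, 2646 lower in blue and the rest in gray. A few increases reach beyond 10 on the log2 scale.

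Genes of the sarcomere rose between 2 and 6 h. Of 15 genes for thick filament and M-line proteins, 13 were raised and none lowered, against 14.5% and 14.7% of all genes, and their median change was 4.05 against 0.17. The minor body wall myosin heavy chain, MYO-3, which sits at the center of the filament, had signals of 1310.5, 2823 and 866 at 6 h, against 13.4, 11.0 and 6.3 at 2 h. Every 6 h array was well above the reference level and every 2 h array below it, which gave an increase of at least 21.1-fold (log2 change 7.24 ± 0.88, adjusted p 1.3e-06). Its partner *unc-54*, the major myosin heavy chain, gave 1236, 3855 and 1626 at 6 h, against 142, 137 and 88.2 at 2 h, with no overlap (16.5-fold, log2 change 4.05 ± 0.78, adjusted p 0.00098). The regulatory myosin light chain gene *mlc-1* gave 34177, 36780.2 and 35903 at 6 h, against 76.5, 114 and 140.2 at 2 h. Its arrays differed little within each group, and the increase was 332-fold (log2 change 8.38 ± 0.29, adjusted p 2.6e-14). The other regulatory light chain gene, *mlc-2*, rose 543-fold, and the essential light chain gene *mlc-3* rose at least 394-fold at 1 probe set and at least 1268-fold at another. The gene for paramyosin, the core of the filament, had signals of 1106, 5999.9 and 1536 at 6 h, against 69.8, 51.7 and 29.1 at 2 h (*unc-15*, at least 31.1-fold, or at least 18.7-fold without 6 h array B). Its groups did not overlap, although 6 h array B stood far above the other 6 h arrays. At the M-line, *unc-98* rose 131-fold. The myosin chaperone gene *unc-45* rose 4.81-fold (1517, 1723 and 854 at 6 h, against 301, 221 and 301 at 2 h). The giant kinase gene *unc-22* (twitchin) did not pass, with signals of 101, 64.9 and 86.7 at 6 h and 119, 259 and 48.5 at 2 h, near the reference level in both groups (log2 change -0.46 ± 0.87, adjusted p 0.75).

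Among thin filament genes 15 of 19 were raised and 1 was lowered, with a median change of 4.10. The troponin complex makes contraction depend on calcium. Its T subunit gene *tnt-3* had 50079.5, 67194 and 59112 at 6 h, against 80.2, 7.0 and 4.9 at 2 h. The groups were far apart, and 2 of the 2 h arrays were below the reference level (at least 799-fold, log2 change 12.02 ± 0.94, adjusted p 3.8e-06). Another troponin T gene, *mup-2*, gave 11428, 11931 and 11821 at 6 h, against 61.3, 35.7 and 75.8 at 2 h (at least 164-fold). The troponin C gene *pat-10*, whose product binds the calcium, gave 99307, 139405 and 96766 at 6 h, against 423, 602 and 479 at 2 h. This was an increase of 222-fold at this probe set and 443-fold at another, with 2 h arrays that were already above the reference level. The troponin I gene *unc-27* was well above the reference level at both times. It had 27442, 16667 and 16712 at 6 h, against 1315, 982 and 1163 at 2 h, an increase of 17.2-fold (log2 change 4.10 ± 0.24, adjusted p 3.2e-11). Tropomyosin, which lies along the actin filament, rose at least 97.8-fold (*lev-11*). The calponin-like gene *cpn-3* showed the largest fold among called probe sets above the reference level on all 6 arrays, with 118711, 163371 and 117018 at 6 h, against 70.0, 208 and 123 at 2 h (1082-fold, log2 change 10.08 ± 1.63, adjusted p 0.0014).

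Actin genes changed by smaller folds. Signals of *act-4* were 41907, 44864 and 32486 at 6 h, against 18644, 16453 and 21241 at 2 h, an increase of 2.11-fold without overlap (adjusted p 0.00037) that was not called with equal array medians or after quantile normalization. The gene *act-3* rose 2.87-fold. Of 3 probe sets shared by several actin genes none was raised and 1 was lowered, 1.98-fold, so the actin genes cannot all be read apart. The single lowered member was *unc-60*, which encodes ADF/cofilin, a protein that takes actin filaments apart and has a muscle and a non-muscle form from 1 gene. It had 5422, 4379.5 and 3242 at 6 h, against 22922, 24854 and 30632 at 2 h, and fell 6.10-fold (log2 change -2.61 ± 0.20, adjusted p 1.7e-09). Of the 5 probe sets of *unc-60* 4 were lowered, by 3.03-fold to 11.3-fold, and 1 was raised. The raised probe set, chosen after its values were seen, averaged 11872 ± 3492 (SD, n = 3) in 6 h embryos and 278 ± 4.75 (SD, n = 3) in 2 h embryos, a 41.4-fold increase (log2 change 5.37 ± 0.28, adjusted p 4.1e-12 in limma). The files do not say which transcript form of *unc-60* each probe set reads.

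**Figure D2:**
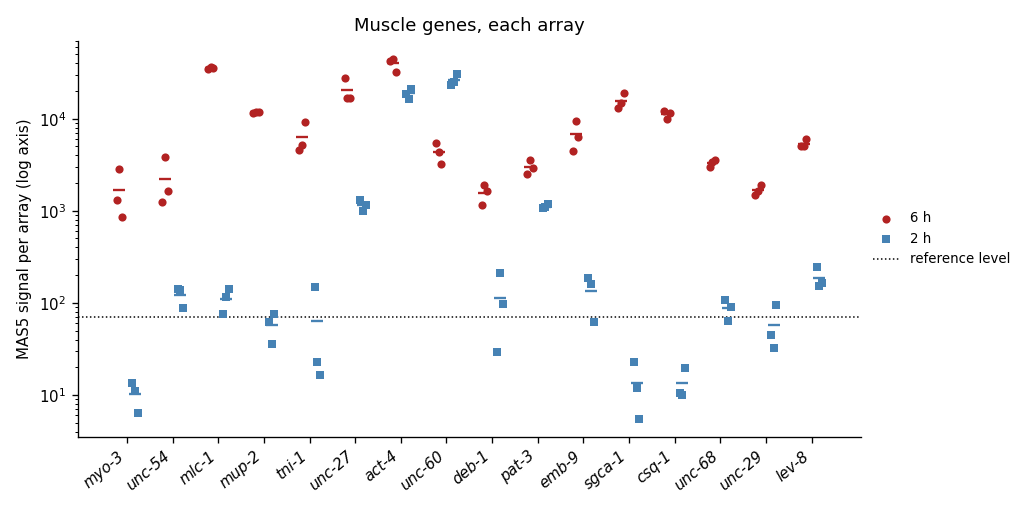
MAS5 signal (log axis) of 16 genes for muscle structure and excitation on each of the 3 arrays at 6 h (red circles) and the 3 at 2 h (blue squares), with horizontal bars at the arithmetic means and a dotted line at the reference level of 69.7. For 15 of the genes all 6 h points lie above all 2 h points, while *unc-60* is lower at 6 h, and *act-4* and *pat-3* are separated by much less than the others.

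Genes of the dense bodies and of integrin attachment had a smaller median change, and several were far above the reference level at 2 h. Of 17, 11 were raised and none lowered, with a median change of 1.77. The β integrin gene *pat-3* had 2477, 3598 and 2949 at 6 h, against 1063, 1091 and 1182 at 2 h, a rise of 2.68-fold (log2 change 1.42 ± 0.21, adjusted p 1.5e-05). PINCH, an adaptor bound to integrin, gave 22109, 23817 and 18229.7 at 6 h, against 6338, 5173 and 7315 at 2 h (*unc-97*, 3.42-fold). In both cases the groups did not overlap although the 2 h arrays were far above the reference level. The other adaptors of that complex rose 4.34-fold (*pat-4*, integrin-linked kinase), 6.94-fold (*pat-6*, parvin) and 6.75-fold (*unc-112*, kindlin). Vinculin, which links the complex to actin, gave 1169.6, 1916 and 1638 at 6 h, against 29.6, 210.5 and 97.4 at 2 h (*deb-1*, at least 13.7-fold, adjusted p 0.00049). The largest change in the list was that of *dim-1*, for an immunoglobulin-repeat protein near the attachment sites, which rose 123-fold.

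Of 18 basement membrane genes 9 were raised and none lowered, with a median change of 1.53, or 0.91 with signals under the reference level raised to it. SPARC, a collagen-binding matrix protein made by muscle, had signals of 54533, 60169 and 54239 at 6 h, against 98.4, 142 and 83.6 at 2 h (*ost-1*). This 534-fold rise (log2 change 9.06 ± 0.51, adjusted p 9.2e-08) was already large at 4 h, when the mean was 22648. The nidogen gene *nid-1* rose 82.3-fold. The collagen IV chain gene *emb-9* gave 4508, 9505 and 6296 at 6 h, against 186, 159.8 and 62.1 at 2 h (at least 50.6-fold), and the other chain, *let-2*, rose at least 12.8-fold. MIG-17, a secreted metalloprotease that remodels the membrane, had 22898, 19496 and 28773 at 6 h, against 219.5, 214 and 370.5 at 2 h (*mig-17*, 90.4-fold), with a mean of only 324 at 4 h. The laminin α chain gene *epi-1* rose 2.00-fold, and was not called with equal array medians or in the fit without trend and robust estimation (5654, 7409 and 7699.6 at 6 h, against 3305, 3272 and 3726 at 2 h), and the perlecan gene *unc-52* did not pass (log2 change -0.99 ± 0.66, adjusted p 0.3).

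Of the 11 tested genes of the dystrophin complex, which ties the cytoskeleton to the matrix at the muscle membrane, 7 were raised and 1 lowered, with a median change of 4.29. The α-sarcoglycan gene *sgca-1* had 12968, 14763 and 18959.6 at 6 h, against 22.6, 11.9 and 5.5 at 2 h, with every 2 h array below the reference level (at least 220.5-fold, log2 change 10.40 ± 0.87, adjusted p 7.2e-08). The sarcoglycan gene *sgn-1* rose at least 501-fold, its relative *sgcb-1* at least 155-fold and the syntrophin gene *stn-2* at least 144-fold. A probe set for *dys-1*, the dystrophin gene, which the annotation lists under 2 entries and which is therefore counted apart, was raised as well, with 729.8, 1621 and 1090.1 at 6 h, against 7.8, 18.1 and 81.7 at 2 h. The exception was the dystroglycan-like gene *dgn-3*, with 192, 18.4 and 38.8 at 6 h, against 908, 786 and 669 at 2 h (at least 8.01-fold lower, log2 change -3.92 ± 0.70).

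Genes that couple excitation to contraction rose mostly after 4 h. Of 21, 12 were raised and none lowered, with a median change of 2.48, or 1.72 with signals under the reference level raised to it. Calsequestrin, the calcium buffer of the sarcoplasmic reticulum, had 12042, 9930.3 and 11391 at 6 h, against 10.4, 9.9 and 19.7 at 2 h (*csq-1*), and its mean at 4 h was still 93.3. The increase was at least 159-fold (log2 change 9.77 ± 0.49, adjusted p 2.8e-12). The ryanodine receptor, through which that store is emptied, gave 2960.4, 3349.9 and 3589 at 6 h, against 108, 64.1 and 90.8 at 2 h (*unc-68*, at least 37.4-fold). The gene *slo-1*, for a potassium channel that damps excitation, rose at least 15.1-fold, and *sup-9*, for a potassium leak channel, at least 75.0-fold. The calcium channel subunit gene *unc-36* gave 977, 900.3 and 790.1 at 6 h, against 4.1, 4.3 and 11.0 at 2 h (at least 12.7-fold). The pore subunit EGL-19, the L-type calcium channel of body wall muscle, gave 80.4, 544 and 544 at 6 h, against 14.2, 157 and 80.3 at 2 h, and did not pass (*egl-19*, adjusted p 0.071).

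At the neuromuscular junction 12 of 17 genes were raised and none lowered, with a median change of 2.96. Of 5 subunits of the levamisole-sensitive acetylcholine receptor 4 were raised, and *unc-63* was too dim to test (at most 103.6 at 6 h and 55.7 at 2 h). Signals of *unc-29* were 1498, 1646 and 1897 at 6 h, against 44.8, 32.1 and 94.3 at 2 h (at least 21.7-fold, log2 change 5.03 ± 0.66, adjusted p 3.4e-06). Signals of *unc-38* were 3069.7, 4185 and 4563 at 6 h, against 130.0, 128 and 172 at 2 h (27.4-fold, adjusted p 2.1e-10). Neither gene had overlapping groups, and *lev-8* and *lev-1*, for other subunits, rose 29.4-fold and 7.93-fold. By 4 h *unc-29* had covered 54.8% of its rise on the log2 scale, *lev-1* 28.5%, *unc-38* 11.5% and *lev-8* 4.66%. LEV-10, which gathers these receptors at the synapse, had 8184, 12935 and 8458 at 6 h, against 9.8, 53.8 and 147 at 2 h (*lev-10*, at least 108-fold). The glutamate receptor-like gene *glr-8* rose at least 30.2-fold. The subunit of the other, nicotine-sensitive receptor was not raised, with 24.5, 4.4 and 73.4 at 6 h, against 105, 96.5 and 63.6 at 2 h (*acr-16*, log2 change -2.12 ± 1.13, adjusted p 0.18).

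Regulators of body wall muscle went in both directions. Signals of *hlh-1* were 861, 1519.6 and 1652 at 6 h, against 3684, 4023 and 2802 at 2 h. All 6 h arrays lay below all 2 h arrays, a fall of 2.68-fold (log2 change -1.42 ± 0.28, adjusted p 0.00035), and the means were 248, 3503, 1357 and 1344 at 0, 2, 4 and 6 h. The sources used here do not say whether this probe set also reads the transgene. The serum response factor UNC-120, which acts with HLH-1 in body wall muscle, had 13646, 11629 and 15460.5 at 6 h, against 839.9, 725 and 948 at 2 h. Its 16.2-fold increase (log2 change 4.02 ± 0.20, adjusted p 2.5e-12) was nearly complete at 4 h, at a mean of 11792. Of 12 genes listed as body wall myogenic factors, not all of them specific to body wall muscle, 2 were raised and 4 lowered. The raised ones were *unc-120* and the Twist relative *hlh-8* (at least 4.91-fold). The median change of the 12 was -0.91, or -0.06 with signals under the reference level raised to it. The Hand relative *hnd-1*, which acts early in the muscle lineages, had 241, 244 and 123 at 6 h, against 3739, 1538 and 622 at 2 h. It fell 7.91-fold, or 5.06-fold without 2 h array A and 12.4-fold without 2 h array C, and its mean before the pulse had been 16524. The homeobox gene *ceh-51*, which acts in the MS lineage, fell at least 6.25-fold. The fourth, *vab-7*, had 68.8, 54.4 and 23.2 at 6 h, against 215, 188 and 127 at 2 h, and was no longer called without 2 h array A, 2 h array B or 6 h array C.

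Other transcription factors rose as well. Of 30 that are enriched in sorted muscle cells, 14 were raised (9 with equal array medians) and 3 lowered, with a median change of 1.13. The raised *unc-120* and the lowered *hlh-1*, already counted above, are among them. That list comes from muscle profiles of the same study and is not independent evidence of a direction. The Hox gene *ceh-13* had 5838, 5275 and 5834 at 6 h, against 62.1, 27.0 and 96.9 at 2 h (at least 72.5-fold, adjusted p 4.4e-10). The Runx gene *rnt-1* gave 4297, 4655 and 5183 at 6 h, against 169, 108 and 97.0 at 2 h (38.9-fold). The bZIP factor gene *atf-4*, known for the response to stress and amino acid shortage, rose 29.4-fold, with 28484, 28585 and 32688 at 6 h, against 1295, 1208 and 668 at 2 h. None of these groups overlapped. Among 33 tested genes with GFP reporters active in muscle, 30 were raised and 1 lowered (*hlh-1*). Their median change was 4.90, or 4.075 with signals under the reference level raised to it. Several of them, such as *myo-3*, *mlc-1*, *cpn-3* and *sgca-1*, are also counted in other lists. The reporter genes, too, were picked from the study's own profiles.

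Cell surface and secreted proteins made up a further set. Of 11 *zig* genes, for small immunoglobulin-domain proteins, several of which keep axons in place, 9 were raised and none lowered, with a median change of 3.24. The gene *zig-7* had 44534, 57959.5 and 49463 at 6 h, against 715, 867 and 756 at 2 h (64.8-fold, log2 change 6.02 ± 0.21, adjusted p 2.6e-14). The rise was at least 40.9-fold for *zig-12*, at least 43.9-fold for *zig-1* and at least 17.6-fold for *zig-10*, none of which was above the reference level on every 2 h array. Of 35 guidance cues and receptors, 14 were raised (9 with equal array medians) and 5 lowered, with a median change of 1.14, or 0.42 with signals under the reference level raised to it. The TGF-β relative UNC-129, a cue that body wall muscle makes for motor axons, had 1570.2, 1359.5 and 1322 at 6 h, against 131, 33.4 and 44.1 at 2 h (*unc-129*, at least 16.4-fold). The FGF gene *let-756* rose at least 6.21-fold and the semaphorin gene *smp-1* at least 11.5-fold. Innexins, the gap junction proteins, went both ways. The gene *inx-1* had 1262, 2003 and 1545 at 6 h, against 61.3, 69.7 and 73.3 at 2 h (at least 22.2-fold higher), and *inx-2* had 1534, 748 and 794 at 6 h, against 19006, 16842 and 20906 at 2 h (19.4-fold lower, adjusted p 8.4e-12). Over 20 innexins 3 were raised and 3 lowered, 15% each way, about the rate of all genes (14.5% raised and 14.7% lowered). The raised count was 1 without 6 h array B, 6 h array C, 2 h array A or 2 h array B.

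Genes of cell division fell. All 25 tested genes for DNA replication were lowered, under every scaling and with each array left out, and their median change was -2.32. The sliding clamp PCN-1 (PCNA), which holds polymerase on the template, had 327, 423 and 221 at 6 h, against 2813, 5061 and 5635 at 2 h (*pcn-1*, 13.8-fold lower, log2 change -3.79 ± 0.33, adjusted p 8.7e-08). The helicase subunit gene *mcm-7* gave 426, 468 and 106 at 6 h, against 5487, 3985 and 4491 at 2 h, a fall of 16.7-fold, or 10.3-fold without 6 h array C. The licensing factor gene *cdt-1* and its inhibitor *gmn-1* (geminin) fell at least 4.07-fold (*cdt-1*) and at least 9.50-fold (*gmn-1*). In each of these the 6 h arrays lay below all 2 h arrays. Of 42 cell cycle genes 29 were lowered and 3 raised (31 and 1 with equal array medians), also with a median of -2.32. The mitotic kinase gene *cdk-1* had 1659, 1511 and 1101 at 6 h, against 21492, 20359 and 18386 at 2 h, with tight groups (14.3-fold lower, log2 change -3.84 ± 0.18, adjusted p 1.5e-12). Its B-type cyclins fell 9.98-fold (*cyb-1*) and 9.08-fold (*cyb-3*), the Aurora B kinase gene *air-2* 18.4-fold and the centromeric histone gene *hcp-3* 15.1-fold. The gene *cki-1*, for an inhibitor that stops cells from entering S phase, ran against this, with 10044, 9009 and 8192 at 6 h, against 508, 644 and 584 at 2 h. It rose 15.7-fold (log2 change 3.97 ± 0.23, adjusted p 2.5e-11), and at 4 h its mean was already 9849.5. By 4 h *cdk-1*, with a mean of 9907, had covered 26.7% of its own fall on the log2 scale.

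Histone genes, many of which are transcribed with DNA replication, were mostly lower. Of 33 with a probe set of their own 19 were lowered and 4 raised, with a median change of -0.99, and the raised count was 2 without 2 h array A. Of 24 probe sets shared by several histone genes 18 were lowered and 4 raised. Linker histones went both ways. The linker histone gene *hil-7* had 124931, 183331 and 129976 at 6 h, against 7539, 5871 and 6281 at 2 h (22.0-fold higher, adjusted p 4.7e-06). Another linker histone gene, *hil-6*, had 1790.5, 1056 and 1464 at 6 h, against 18968, 23024 and 23316 at 2 h (15.4-fold lower). The gene *his-71*, for a histone H3.3 variant that is deposited outside S phase, rose at least 5.98-fold.

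**Figure D3:**
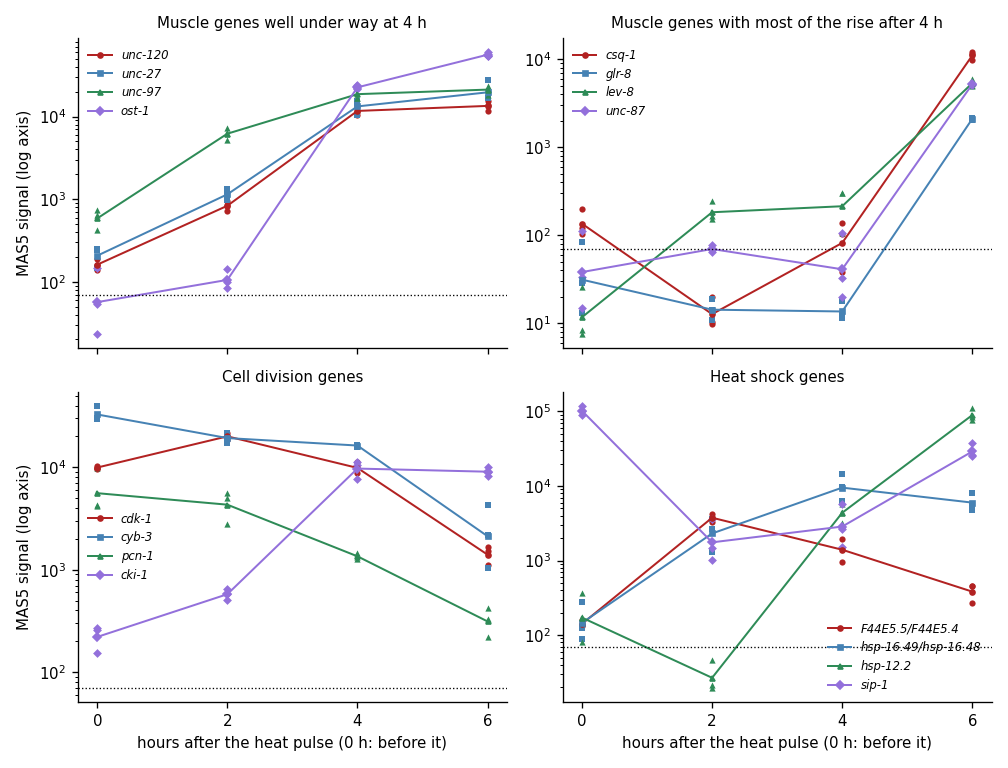
MAS5 signal (log axis) at 0, 2, 4 and 6 h, with a point for each array and lines through the means of log2 signal, for 4 genes in each of 4 panels; the dotted line is the reference level of 69.7. By 4 h *unc-120*, *unc-27*, *unc-97* and *ost-1* had covered 85.5 to 95.0% of their rise from 2 to 6 h on the log2 scale. In contrast, *csq-1*, *glr-8*, *lev-8* and *unc-87* made most of their rise after 4 h. The gene *cki-1* had risen by 4 h while *cdk-1*, *cyb-3* and *pcn-1* fell further to 6 h, and the heat shock genes ran in different directions.

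The heat shock genes did not move as 1 class. F44E5.4 and F44E5.5 encode inducible Hsp70 proteins. A probe set that they share had 268, 455 and 459 at 6 h, against 3273, 3841 and 4199 at 2 h, with means of 142, 3771, 1452 and 394 at 0, 2, 4 and 6 h. It was 9.81-fold lower at 6 h (log2 change -3.29 ± 0.28, adjusted p 7.1e-09), without overlap, and another shared probe set was 20.3-fold lower, or 10.8-fold without 6 h array A. None of the small heat shock genes of the HSP-16 class, also known for a strong response to heat, was called lower. A probe set shared by *hsp-16.48* and *hsp-16.49* had 4802, 7986 and 5588 at 6 h, against 3553, 2651 and 1306 at 2 h (log2 change 1.37 ± 0.49, adjusted p 0.055), with a mean of 10060.3 at 4 h and 164 before the pulse. The groups did not overlap but the difference did not pass. The gene *hsp-16.2* rose 3.94-fold (357, 526 and 657 at 6 h, against 168, 149 and 80.5 at 2 h), and *hsp-16.41* did not pass (log2 change -0.79 ± 0.51).

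Over 10 small heat shock genes 6 were raised and none lowered, with a median change of 3.01, or 2.14 with signals under the reference level raised to it. The largest increases belonged to the short HSP-12 proteins. The gene *hsp-12.2* had 77877, 109583 and 83631 at 6 h, against 21.3, 46.2 and 19.4 at 2 h, below the reference level (at least 1282-fold, log2 change 11.71 ± 0.49, adjusted p 2.9e-09). The gene *hsp-12.1* had 20142, 19379 and 20113 at 6 h, against 39.2, 4.8 and 7.0 at 2 h (at least 285-fold). Another member, *hsp-25*, gave 8028, 7998 and 9043 at 6 h, against 255, 230.1 and 286 at 2 h (32.6-fold, adjusted p 2.2e-12). None of these 3 genes had overlapping groups. The gene *sip-1*, for a small heat shock protein of oocytes and early embryos and named after its values were seen, was highest before the pulse, with means of 102399, 2037, 3302 and 29533 at 0, 2, 4 and 6 h, and its 6 h signal was 16.6-fold above that at 2 h. Of 22 other chaperone genes 6 were raised and 1 lowered, with a median of 0.14. The raised count was 3 or 4 with any 1 array left out and 2 with equal array medians. The constitutive Hsp70 gene *hsp-1* had a log2 change of 0.62 ± 0.30 and was called higher after quantile normalization only. The Hsp90 gene *hsp-90* had one of -0.47 ± 0.22 and was called lower with equal array medians only. Neither passed with the deposited scaling, nor did the heat-inducible *hsp-70*, whose 6 h arrays were all below the reference level. Among those raised were the endoplasmic reticulum Hsp70 gene *hsp-4* (at least 5.79-fold) and *unc-23* (at least 5.70-fold), whose product keeps muscle attached to the body wall. The single lowered gene, *aipl-1*, fell 7.95-fold. Of 8 genes of the CCT chaperonin, which folds actin and tubulin, 1 was raised, and none without 6 h array A, without 2 h array B or with equal array medians.

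Genes of the cytoplasmic ribosome rose by modest amounts. Of 75, 72 were raised and none lowered, with a median change of 1.24. With equal array medians 51 were raised with a median of 0.87, and after quantile normalization 14 were raised with a median of 0.28, so that the size of this shift depends on the scaling. The largest, *rpl-30*, had 93881, 100422 and 74705 at 6 h, against 16642, 13774 and 13926 at 2 h (6.04-fold, adjusted p 7.5e-10). It was followed by *rpl-39* (4.41-fold) and *rpl-34* (4.01-fold). Genes of the mitochondrial ribosome rose in 12 of 58 cases with none lowered, but 6 were raised and 3 lowered with equal array medians. The proteasome, which degrades tagged proteins, went the other way, with 15 of 31 subunit genes lowered, none raised and a median of -0.72. The count lowered was 22 with equal array medians and 13 after quantile normalization. Signals of *rpt-5*, for an ATPase of the regulatory cap, were 439.7, 284 and 189.9 at 6 h, against 1162, 1324 and 1599.7 at 2 h (4.70-fold lower, adjusted p 2.7e-06). Its neighbor in the cap *rpn-11*, which strips ubiquitin from substrates, fell 4.53-fold.

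**Figure D4:**
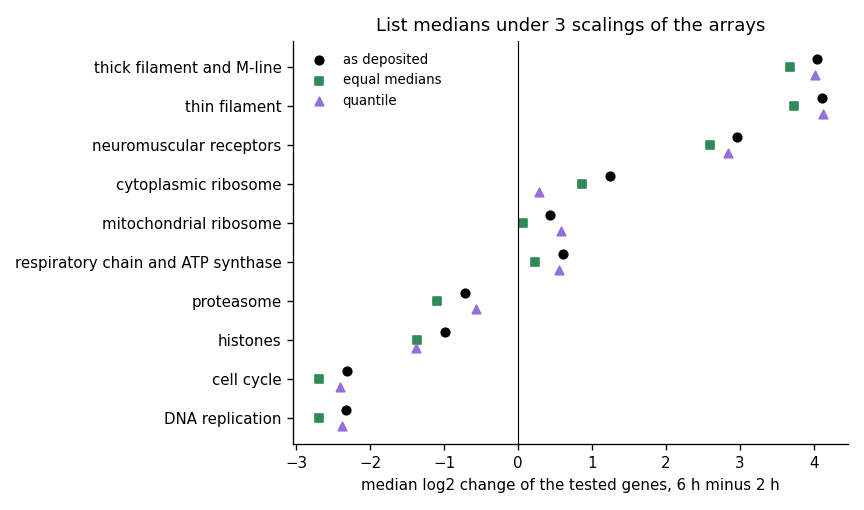
Median log2 change (6 h minus 2 h) of the tested genes of 10 lists with the deposited scaling (black circles), with equal array medians (green squares) and after quantile normalization (purple triangles). The ribosome median moves between 1.24 and 0.28, while the muscle medians stay above 2 and those of cell cycle and DNA replication below -2.

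In energy metabolism, related enzymes changed in opposite directions. Of 20 glycolysis and energy genes 8 were raised and 3 lowered (5 and 5 with equal array medians), with a median change of 0.69. The pyruvate kinase gene *pyk-2* had 1179.9, 1036 and 778 at 6 h, against 84.1, 77.0 and 70.2 at 2 h (12.8-fold, adjusted p 9.9e-06), and *pyk-1* rose 4.20-fold. The aldolase gene *aldo-1* had 5347, 4581 and 3109 at 6 h, against 1968, 1784 and 2416 at 2 h (2.08-fold higher, not called with equal array medians), while *aldo-2* had 2026, 883 and 672 at 6 h, against 3638, 3498 and 3033 at 2 h (3.18-fold lower). The same held for glyceraldehyde phosphate dehydrogenase. The genes *gpd-2* and *gpd-3* rose 2.08-fold and 2.88-fold, of which *gpd-2* was not called with equal array medians or after quantile normalization, whereas a probe set shared by *gpd-1* and *gpd-4* fell 2.89-fold (3849, 2004 and 1488 at 6 h, against 4852, 7026 and 8139.5 at 2 h). Lactate dehydrogenase fell 2.96-fold (*ldh-1*). Of 36 respiratory chain and ATP synthase genes 10 were raised and 1 lowered (2 and 2 with equal array medians). Among ATP synthase subunits *asb-2* rose 3.62-fold and *atp-2* fell 4.13-fold.

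Early embryonic regulators fell more often than they rose. Of 24 early lineage genes 9 were lowered and 1 raised, with a median change of -0.42, and 2 were raised without 6 h array C, 2 h array A or 2 h array C. The maternal factor gene *skn-1*, which specifies the mesendoderm, had 177, 5.2 and 136 at 6 h, against 2058, 1679.9 and 1949.6 at 2 h (at least 15.9-fold lower, adjusted p 0.0053, not called in a fit of these 6 arrays alone). The gut GATA factor gene *elt-7* had 357, 247 and 434 at 6 h, against 2813, 2022 and 1222 at 2 h (5.66-fold lower), while the earlier *end-1* and *end-3* did not pass. The mean of *end-1* was 252 at 6 h and 170.1 at 2 h, and had been 29306 before the pulse. The raised gene, *ref-1*, a target of Notch signaling, had 586, 569 and 538 at 6 h, against 132, 70.2 and 83.7 at 2 h (6.13-fold). Of 26 germ line and maternal genes 11 were lowered (7 without any 1 of the 3 arrays at 2 h) and none raised, with a median of -0.90. The oocyte maturation gene *oma-1*, whose protein is degraded around the first division, had 154, 23.8 and 46.3 at 6 h, against 13744, 16540.2 and 16645 at 2 h (at least 172-fold lower, log2 change -8.14 ± 0.51, adjusted p 1.1e-07). Its mean before the pulse was 1407, below the 2 h signal. The oocyte surface receptor gene *egg-1* gave 85.7, 143 and 104 at 6 h, against 4238, 3943 and 2522 at 2 h (32.1-fold lower), and the translational repressor gene *puf-5* fell at least 35.3-fold. Summed over the 26 genes, signal was 26293 to 32350.1 on 6 h arrays and 66955 to 72510.5 on 2 h arrays, with no gene at 0, and the part of these cells in the results above was not tested.

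Markers of other cell types went both ways, to be read against 14.5% of all genes raised and 14.7% lowered. Of 10 pharyngeal muscle markers 2 were raised and 1 lowered. The heavy chains of pharyngeal myosin, *myo-1* and *myo-2*, did not pass, and at least 1 array of each at 6 h was below the reference level. Pharyngeal troponin C rose 8.76-fold (*tnc-2*) and the Nkx-type factor CEH-22, which directs pharyngeal muscle, at least 5.28-fold (*ceh-22*). The lowered member was *eya-1*. The summed signal of the 10 markers was 2985.8 to 3777 at 6 h and 2377 to 2695 at 2 h. Of 31 neuron markers 4 were raised (2 without 6 h array A, 2 h array B or 2 h array C) and 4 lowered. At 13% each way, this was about the rate of all genes. The sum was 11491 to 16622 at 6 h, against 21892 to 25793 at 2 h. This difference was carried by 1 gene. The touch neuron tubulin gene *mec-7* had 1292, 1097 and 859 at 6 h, against 15689, 12494 and 11699 at 2 h (12.3-fold lower, adjusted p 4.1e-11), and without it the other 30 markers summed to 10633 to 15330 at 6 h, against 10055 to 10193 at 2 h. The GABA transporter gene *unc-47* rose 4.04-fold (1339.9, 1294 and 1319 at 6 h, against 322, 392 and 276 at 2 h).

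Of 21 intestine markers 2 were raised (1 without 6 h array B, 2 h array B or 2 h array C) and 4 lowered (2 without 6 h array B or 2 h array B), and their sum was 5423 to 6500.0 at 6 h and 6426 to 8117 at 2 h. The raised members were *mtl-1* and *hsp-3*, of which *hsp-3* is also counted among the raised chaperone genes. The lowered members were *elt-7*, *spl-1*, *erm-1* and *gem-4*. The defining intestinal genes *elt-2* and *ges-1* were near the reference level at both times and did not pass. Of 29 epidermis markers 6 were raised and 4 lowered, with a median of 0.36 (-0.02 with equal array medians), and the sum was 39439 to 72287 at 6 h and 21935 to 32112 at 2 h. This rise came from 2 cuticle collagen genes, *sqt-3* with 26328, 50396 and 24324 at 6 h, against 12673, 12355 and 9568 at 2 h, and *dpy-17* with 16236, 8716 and 6483 at 6 h, against 2059, 2221 and 506 at 2 h. Without them the other 27 markers summed to 8632 to 13174 at 6 h, against 11860 to 17380.1 at 2 h. The call of *sqt-3* was lost with equal array medians and after quantile normalization, and *dpy-17* rose 7.35-fold, or 4.54-fold without 2 h array C. The spectraplakin gene *vab-10*, which links epidermis to the muscle beneath, rose at least 5.66-fold, and the fibrillin-related gene *fbn-1* had 26.9, 129 and 59.0 at 6 h, against 1752, 1472 and 1064 at 2 h (at least 16.4-fold lower). No marker was at 0 on any array, and the part of these cells in the muscle results was not tested. Cuticle collagens were called at about the rate of all genes, with 14 of 118 raised and 14 lowered and a median of 0.24, or -0.14 with equal array medians. The collagen gene *rol-8* had 140.0, 166 and 31.5 at 6 h, against 6629, 5107 and 5132 at 2 h (at least 47.5-fold lower), while *col-121* had 1776, 1616 and 962 at 6 h, against 143, 48.9 and 19.0 at 2 h (at least 15.8-fold higher). Of 70 genes related to hedgehog and its receptor 6 were raised and 11 lowered, with a median of 0.00, or -0.37 with equal array medians. Among them the hedgehog-like gene *wrt-5* had 10132, 3322 and 7792 at 6 h, against 225, 138 and 63.0 at 2 h (at least 49.4-fold higher).

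**Figure D5:**
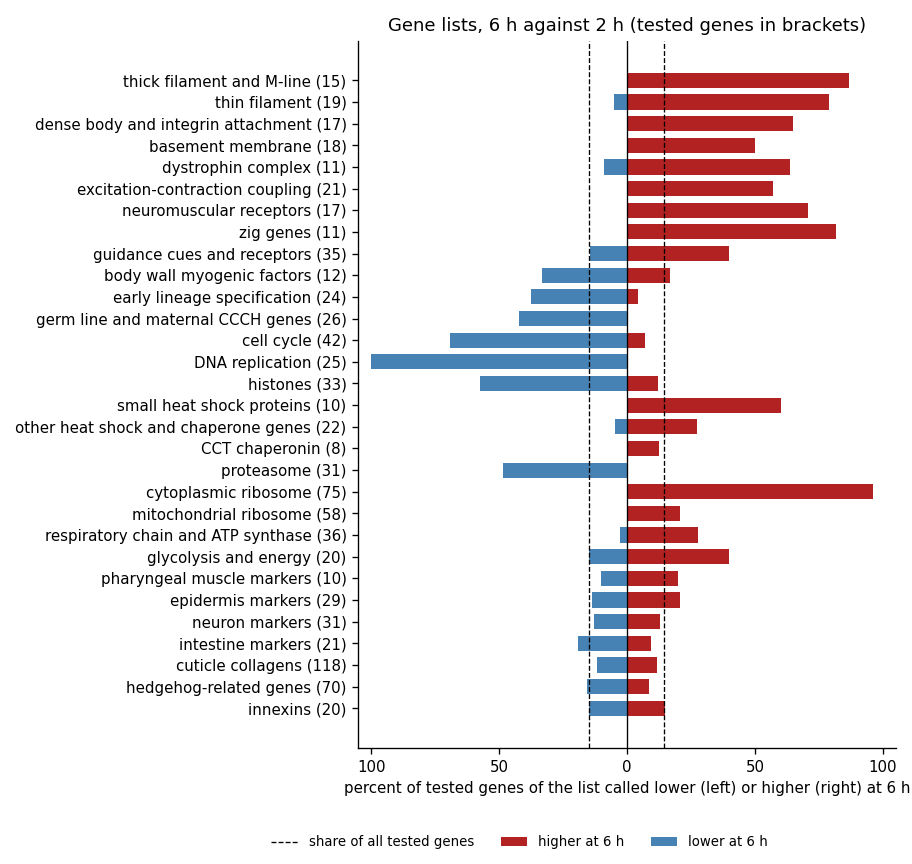
Percent of the tested genes of 30 lists that were called higher (red, to the right) or lower (blue, to the left) at 6 h than at 2 h, with the number of tested genes in brackets and dashed lines at the shares of all tested genes, 14.5% raised and 14.7% lowered. Muscle structure, receptors, *zig* genes and cytoplasmic ribosome stand to the right and DNA replication, cell cycle, histones and proteasome to the left, while cuticle collagens, hedgehog-related genes and innexins lie near the dashed lines.

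Many of the largest changes fell outside these lists. Among bounds the highest was that of *clik-1*, a calponin-like gene, with 88114, 117297 and 92614 at 6 h, against 19.1, 6.9 and 3.9 at 2 h (at least 1414-fold, log2 change 13.59 ± 1.06, adjusted p 9.1e-06). The peptidyl-prolyl isomerase gene *fkb-4* had 27256, 30578 and 30759.7 at 6 h, against 246, 204 and 185 at 2 h (140.3-fold). The glutathione peroxidase gene *gpx-6* rose 129.5-fold and the saposin-like gene *spp-15* 124-fold. Genes known only by a sequence name rose as strongly, by at least 594-fold for K08E7.8 and at least 521-fold for Y69E1A.5. F21H7.3, already counted above among the genes with GFP reporters in muscle, rose at least 768-fold. Of the decreases some followed a peak at 2 h. The gene *dbd-8* had means of 132, 16512, 3445 and 126 at 0, 2, 4 and 6 h, and its arrays gave 134, 99.5 and 146 at 6 h, against 18089.6, 16602 and 14844 at 2 h (132-fold lower, adjusted p 3.3e-14). Likewise *abu-10*, of a family linked to the unfolded protein response, had 317, 298 and 415 at 6 h, against 25856, 32842 and 35753 at 2 h (91.9-fold lower), from a mean of 123 before the pulse. Others had already fallen by 2 h. The Notch ligand gene *dsl-2* had a mean of 73872 at 0 h, and its arrays gave 23.2, 117 and 83.4 at 6 h, against 12999.8, 8175 and 5083 at 2 h (at least 92.7-fold lower). The zinc finger gene *lsy-27* had a mean of 71556 before the pulse, and its arrays gave 128, 136 and 73.6 at 6 h, against 13679.5, 9779.5 and 4791 at 2 h (79.5-fold lower). The F-box gene *fbxb-104* fell only after 2 h, with means of 19302, 16859, 1302 and 178 at 0, 2, 4 and 6 h (104-fold lower at 6 h than at 2 h). A chitinase gene, *cht-1*, fell 42.8-fold (73.0, 288 and 120.3 at 6 h, against 6471, 5967 and 5149 at 2 h).

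The position of the 4 h mean between the 2 h and 6 h means, on the log2 scale, gives the timing of each change as a description without a test. Over all called probe sets the median probe set had covered 50.7% of its rise and 44.9% of its fall by 4 h. Where a 2 h signal lay under the reference level this share depends on values near background, so it was also taken with such signals raised to that level, an alternative added after the data were seen. Among raised members the median share was 71.6% as deposited and 57.0% with the raised signals for the basement membrane, and 54.9% both ways for dense bodies and attachment. It was 47.3 and 38.8% for the dystrophin complex, 45.6 and 40.4% for thin filaments, and 40.1 and 22.8% for thick filaments. For *zig* genes it was 33.0 and 20.3%, for receptors of the neuromuscular junction 23.6 and 18.4%, and for excitation-contraction coupling 26.1 and 5.88%. Single genes departed from their list, such as *mig-17*, with 324 at 4 h and 23722 at 6 h, and *unc-87*, for a thin filament protein related to calponin and chosen after its values were seen, with 52.8 at 4 h and 5221 at 6 h.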

How the data were processed

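RNA was amplified as cDNA over 20 PCR cycles, biotin labeled and hybridized to Affymetrix *C. elegans* arrays. The values are the MAS5 signal intensities deposited by the authors, scaled by them to a trimmed mean near 500 on each array, and the sources used here do not give the software version. Amplification and scaling bear on the measurements, since the medians of the arrays still differed between time points. Of 22625 probe sets 77 controls were left out, and 18264 of the other 22548 were tested, being above the reference level of 69.7 (the 40th percentile of each array, median of 12 arrays) on at least 3 arrays. Log2 signals of all 12 arrays were fitted in limma 3.58.1 (R 4.3.3) with trend and robust estimation. The scripts were tested on simulated data. The platform annotation gave 20766 probe sets 1 gene, 887 several and 895 none. A gene was read at its own probe set with the highest mean signal.

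Genes are named by a rule: the 12 largest folds each way above the reference level on all 6 arrays, the 8 largest bounds each way, and per list up to 4 called members each way plus preset members. Probe sets shared by several genes lie outside it and were picked with their values in view. The members and the 32 gene lists were chosen with earlier results of these data known. The alternatives were equal array medians, quantile normalization, other filters and thresholds, a floor at the reference level, fewer arrays, plain moderation and a replicate block. Marker sums without single genes, and 4 h shares with low signals raised, were added after seeing the data. With 3 arrays per time point, the number of arrays limits the precision.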

Additional observations from a re-analysis of the deposited data

How the results depend on the processing

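The counts of called probe sets, 2610 higher and 2646 lower at 6 h, stayed within 1.5 times under every alternative with 1 exception, a fold of at least 3, which left 1904 higher and 1714 lower. Equal array medians gave 1894 higher and 3620 lower, quantile normalization 2281 and 2835, and a floor at the reference level 3158 and 2855. Leaving out 1 array at a time gave 2222 to 2399 higher and 2297 to 2698 lower, and 1839 of the higher and 2006 of the lower probe sets were called in all 6 of these fits. Arrays of the same letter did not deviate together (correlations of 0.0057, -0.0224 and -0.0155), so no pairing by letter was seen in this measure. Whether samples of a letter shared a handling step was not tested. A fit with the letter as a replicate block called 2565 higher and 2624 lower. Over the named genes, 3614 alternative values kept their direction and their side of the threshold, 98 were no longer called, 23 were newly called and 0 were reversed. Of the 268 named probe sets 230 were called, many picked for the largest changes. That choice favors stability, so these counts do not describe called probe sets in general. Signals near the reference level limit the folds of dim genes, which are lower bounds at 1173 raised and 769 lowered probe sets.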
